A study of Mus musculus with 12 samples.

Results

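Cholesterol is made from acetyl-CoA in a long enzymatic pathway, sensed in the endoplasmic reticulum, moved between membranes and exported. The 33 mouse genes described here were listed for those tasks by symbol: 20 enzymes of synthesis, 4 genes of the SREBP2 sensor, 4 genes of sterol transport and esterification, and 5 genes of sterol-sensing nuclear receptors, export and lipoprotein receptor turnover. Each was found by its Entrez gene number among the 27179 genes of the deposited count table. RNA was sequenced from luminal and basal epithelial cells that had been sorted by flow cytometry from the mammary glands of wild-type female FVB/N mice. The mice were virgin, at day 18.5 of pregnancy or at day 2 of lactation, and had received no treatment. The labels do not give their ages. Luminal cells line the ducts and alveoli and make milk, and basal cells form the contractile outer layer. Each of the 6 groups (luminal virgin, luminal pregnant, luminal lactating, basal virgin, basal pregnant and basal lactating) had 2 libraries, numbered 1 and 2, so that p-values measure the spread between these libraries. A luminal and a basal library of a stage may come from the same mice, and the fit used below treats them as independent.

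The pathway begins with the mevalonate enzymes, which build isoprenoid units from acetyl-CoA. Prenyl diphosphate synthases join these units, the squalene enzymes fold the product into lanosterol, and a further set of enzymes trims lanosterol into cholesterol. When membranes hold little sterol, the escort protein SCAP carries SREBP2 to the Golgi, where it is cut into a transcription factor that switches on most genes of the pathway. INSIG proteins hold SCAP back when sterol is plentiful, and Insig1 is itself a target of SREBPs. When sterol derivatives accumulate, the LXR nuclear receptors switch on the exporters Abca1 and Abcg1 and the ubiquitin ligase gene Mylip. In the mammary gland, milk fat globules leave the luminal cell wrapped in membrane that contains cholesterol.

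Each library held between 20015386 and 24723827 counts. Levels are in CPM, counts scaled to a common library size, after trimmed-mean (TMM) scaling, and changes are log2 values tested with edgeR (quasi-likelihood), the p-values being adjusted by Benjamini-Hochberg over 15969 genes. A change is called where the adjusted p is below 0.05, and the SE of each log2 value stands beside it. All 33 genes passed the low-count filter, and the lowest count of any of them in any library was 11, for Nr1h3 in luminal lactating library 1. Caseins, the milk proteins, summed to 651543.5 and 633496 CPM in luminal lactating libraries, and without TMM factors (library size only) the all-gene median shifted, by -0.85 for lactating against pregnant luminal cells, -0.50 for pregnant against virgin luminal cells and -0.99 for luminal against basal lactating cells. All changes below are relative to the TMM scale. All luminal libraries were sequenced in lane 1 and all basal libraries in lane 2, so that cell type and lane cannot be told apart. The sums of the defining markers separated the sorted cells and moved with stage, but not every marker did so alike. Krt19, a luminal marker, was at 574 and 556 CPM in luminal and 448.8 and 449.2 CPM in basal lactating libraries. With library size only, 8 of the 10 luminal markers were called higher and 2 lower in luminal than in basal lactating cells. The 10 luminal markers summed to 13273 and 13871 CPM in virgin, 13764.5 and 18204 CPM in pregnant and 8808 and 8573 CPM in lactating luminal libraries, where 7 of the 10 were called lower at lactation than in pregnancy, and to 1169 to 1727 CPM in basal libraries. The 10 basal markers summed to 110.4 and 139.5 CPM in virgin, 360 and 433 CPM in pregnant and 130.3 and 145 CPM in lactating luminal libraries, where 7 of the 10 were called higher in pregnancy than in virgin glands, and to 17251.5 to 57794 CPM in basal libraries. Casein counts in basal libraries were 0.878% to 3.90% of the mean of the luminal libraries of their stage. The 10 adipocyte markers summed to 144 and 273 CPM in virgin, 245 and 393 CPM in pregnant and 329 and 301 CPM in lactating basal libraries, and 17.4 to 56.1 CPM in luminal libraries, where Adipoq was at 0 at lactation. The 14 leukocyte markers summed to 11.5 and 12.2 CPM in virgin, 49.8 and 50.1 CPM in pregnant and 17.7 and 18.6 CPM in lactating luminal libraries, and 12.2 to 27.4 CPM in basal libraries, with Ms4a1 at 0 in every group but basal virgin. The 10 endothelial markers summed to 88.5 and 118 CPM in virgin, 28.0 and 24.7 CPM in pregnant and 30.6 and 33.3 CPM in lactating luminal libraries, and to 333.5 and 545 CPM in virgin, 136 and 180.1 CPM in pregnant and 147 and 174 CPM in lactating basal libraries. In pregnancy 9 of these 10 were called lower in each cell type. The 10 fibroblast markers summed to 54.3 to 388 CPM in luminal and 236 to 868.5 CPM in basal libraries. The part of such cells in the changes below was not tested. In sorted bulk RNA, fewer cells of a kind and less RNA per cell cannot be told apart.

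The 3 stages ask how each cell type changes as milk secretion begins, and most genes of cholesterol synthesis rose at that step in both. In luminal cells 26 of 33 genes rose and 4 fell between pregnancy and day 2 of lactation, against 23.7% and 24.6% of all genes tested. The median change of the 33 was 1.44, beside 0.00 for all genes. Of the 20 synthesis enzymes, 19 rose, with a median of 1.76 over the 20, and Ggps1 was not called, at -0.09 (95% interval -0.37 to 0.18, adjusted p = 0.57). In basal cells 20 of 33 rose (background 15.7%) and 0 fell (background 17.4%), with a median of 0.51 beside 0.01. 14 of the 20 enzymes rose in basal cells, with a median of 0.79. The count of 0 lower genes in basal cells was also 0 by DESeq2 and 1 by edgeR's quasi-likelihood test at an unadjusted p below 0.05, namely Lbr. With the replicate number as a term in the fit (the replicate block), the basal counts were 23 higher and 1 lower, Mvd, Sc5d and Mylip being called higher and Lbr lower (-0.27), and without basal pregnant library 2 Abcg1 was called lower (-1.03). The backgrounds given here and below are those of the TMM scale, and the shares of all genes called with library size only were not determined. With library size only, the luminal split was 18 higher and 8 lower. Ebp, Insig2 and Abcg1 in luminal and Acat2, Dhcr7 and Nr1h2 in basal cells were then no longer called. Hsd17b7, Sc5d, Scap and Npc2 in luminal cells lost their calls and turned negative (-0.20, -0.36, -0.06 and -0.14), and Lbr was called lower, at -0.41. Ggps1, Srebf2 and Mylip were then also called lower in luminal cells (-0.95, -0.99 and -0.82).

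Summed over the 20 enzymes, the level was 519 and 469 CPM in virgin, 543 and 506 CPM in pregnant and 1705.5 and 1695 CPM in lactating luminal libraries. In basal libraries the sum was 575 and 556 CPM in virgin, 711 and 662 CPM in pregnant and 1337 and 1073 CPM in lactating mice. The lactating libraries stood above all others in each cell type. As a share of raw counts, which the caseins dilute, the enzymes took 0.0710 and 0.0640% of the luminal counts in virgin glands, 0.0545 and 0.0467% in pregnant glands and 0.0903 and 0.0908% in lactating glands. In basal cells of virgin glands their share was 0.0712 and 0.0674%, in those of pregnant glands 0.0799 and 0.0709%, and in those of lactating glands 0.138 and 0.117%. By raw share the lactating basal libraries thus lay above the lactating luminal libraries, whereas by TMM-scaled level they lay below them.

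Between pregnancy and lactation, 17 genes rose in both cell types, and 9 were called higher in luminal cells alone (Mvd, Cyp51, Lbr, Ebp, Sc5d, Scap, Npc2, Soat1 and Abcg1). Npc1 and Nr1h2 fell in luminal and rose in basal cells. Abca1 and Nr1h3 fell in luminal cells and were not called in basal cells, Srebf2 rose in basal cells and was not called in luminal cells, and Ggps1 and Mylip were called in neither. The shares of all genes with such pairs of calls were not determined, so these counts are only a description. A call in 1 cell type is not by itself a difference, so the 2 changes were also tested against each other in the same edgeR fit. The luminal change exceeded the basal change for 18 of 33 genes (background 18.3%) and was below it for 5 (background 18%), with a median difference of 0.73 beside -0.01 for all genes. 12 of the 20 enzymes were among those that rose more in luminal cells. Scaled by library size only, the split of these differences was 7 above and 11 below, and those of Mvd, Fdps, Lss, Nsdhl, Ebp, Dhcr7, Scap and Abcg1 were no longer called, nor were those of Lbr, Stard4 and Npc2, which turned negative (-0.08, -0.07 and -0.23). Those of Hmgcs1, Idi1, Ggps1, Hsd17b7, Sc5d and Mylip were then called below (-0.60, -0.93, -1.21, -1.02, -0.73 and -1.28).

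**Figure D1:**
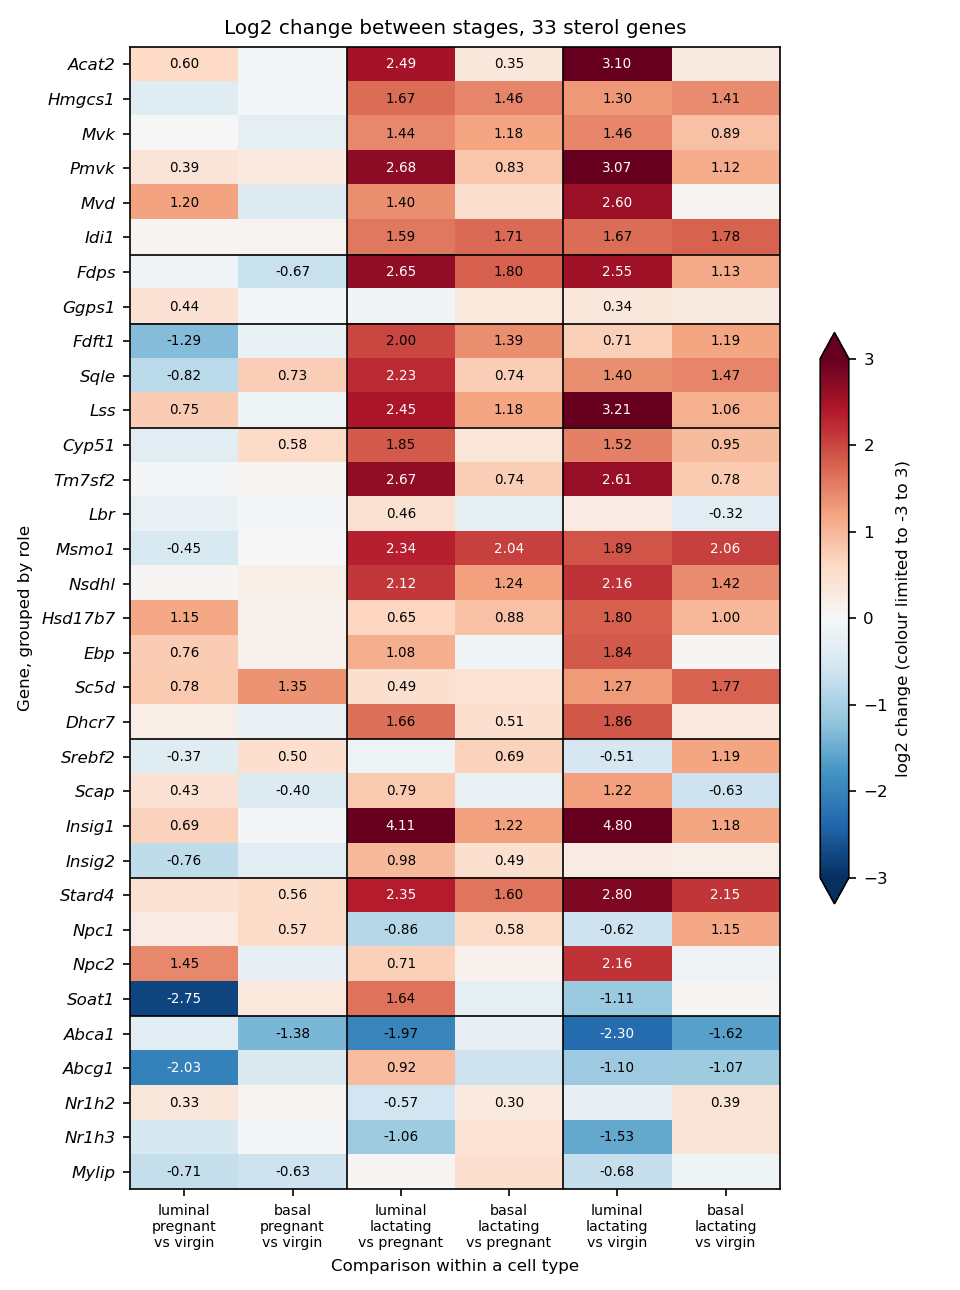
Log2 change of the 33 genes (rows, grouped by role) in 6 comparisons between stages (columns), on the TMM scale. Colour gives the change, limited to -3 to 3, and a printed number marks a change called at an adjusted p below 0.05: in lactating against pregnant luminal cells 26 are higher, from Lbr at 0.46 to Insig1 at 4.11, where Lbr, Hsd17b7, Sc5d, Scap and Npc2 turn negative with library size only.

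Pregnancy did not move the pathway in 1 direction. In luminal cells 12 of 33 genes rose (background 21.8%) and 8 fell (background 24.1%) between the virgin state and day 18.5, with a median of 0.04 beside -0.04 for all genes. The split with library size only was 3 higher and 16 lower, and Acat2, Lss, Ebp, Sc5d and Insig1 were no longer called, nor were Pmvk, Ggps1, Scap and Nr1h2, which turned negative (-0.11, -0.07, -0.07 and -0.18). In basal cells 6 rose (background 15.6%) and 4 fell (background 14.4%), and the split was 3 higher and 6 lower with library size only, where Cyp51, Srebf2 and Stard4 were no longer called. Without basal pregnant library 2 the basal counts were 3 higher and 1 lower, and without basal virgin library 1 the lower count was 1. The luminal change in pregnancy exceeded the basal for 9 genes (background 14.0%) and was below it for 6 (background 16.7%), a split of 4 and 12 with library size only. Sc5d was the gene called higher and Mylip the gene called lower in both cell types, while Scap rose in luminal and fell in basal cells, and Sqle and Srebf2 fell in luminal and rose in basal cells.

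Set against virgin glands, 23 of 33 genes were higher (background 26.7%) and 7 lower (background 33.5%) in lactating luminal cells, with a median of 1.46 beside -0.15. In basal cells 19 were higher and 4 lower (background 23.7% in each direction), with a median of 0.89 beside 0.00. With library size only, the luminal split was 14 higher and 12 lower, with Mvk, Idi1, Sqle and Cyp51 no longer called. Hmgcs1, Sc5d and Scap lost their calls and turned negative there (-0.06, -0.09 and -0.14), and Ggps1 and Fdft1 were called lower (-1.02 and -0.65). Without basal lactating library 2 the basal lower count was 2. The 2 lactation comparisons of a cell type share its lactating libraries. No called pair of groups overlapped in any of these comparisons, but with 2 libraries per group that adds little to a call. In each stage comparison, between 2 and 10 genes that were not called had no overlap either. The share of all genes without overlap was not determined.

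Because so many of these genes rose together at lactation, their promoters are shown beside the values. RefSeq promoter windows on GRCm38.p6 run from 250 bases before to 50 bases after each gene's start, and 27 of the 33 genes had a window in the table used here. Printed are the 5 genes with the largest luminal rise at lactation among those with a usable window, together with Srebf2, the gene of the pathway's transcription factor, and Abca1, the exporter that fell. Hmgcs1 was added after the motif counts were seen. Letters in capitals mark the motifs searched on both strands: TCACNCCAC (a sterol regulatory element, where SREBPs bind), CCAAT (bound by NF-Y, a partner of SREBP2) and GGGCGG (bound by SP1). The windows lie, in the order printed, with Insig1 at chr5:28071162-28071461 (plus strand), Pmvk at chr3:89454291-89454590 (plus strand), Tm7sf2 at chr19:6067801-6068100 (minus strand), Acat2 at chr17:12960676-12960975 (minus strand), Lss at chr10:76531355-76531654 (plus strand), Srebf2 at chr15:82147019-82147318 (plus strand), Abca1 at chr4:53159846-53160145 (minus strand) and Hmgcs1 at chr13:119690101-119690400 (plus strand). Each is written 5′ to 3′ along its gene.
Insig1: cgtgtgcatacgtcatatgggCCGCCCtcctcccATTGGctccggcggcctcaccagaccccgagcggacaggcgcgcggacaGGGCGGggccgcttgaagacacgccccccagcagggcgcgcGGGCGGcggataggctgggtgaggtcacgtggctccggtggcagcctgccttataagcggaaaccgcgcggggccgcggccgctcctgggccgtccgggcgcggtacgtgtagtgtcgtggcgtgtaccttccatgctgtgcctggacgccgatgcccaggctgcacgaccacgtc
Pmvk: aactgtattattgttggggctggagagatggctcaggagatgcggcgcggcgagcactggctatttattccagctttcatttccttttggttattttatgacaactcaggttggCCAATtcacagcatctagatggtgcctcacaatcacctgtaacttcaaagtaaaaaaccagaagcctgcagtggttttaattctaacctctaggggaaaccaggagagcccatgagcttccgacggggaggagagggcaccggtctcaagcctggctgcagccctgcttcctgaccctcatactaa
Tm7sf2: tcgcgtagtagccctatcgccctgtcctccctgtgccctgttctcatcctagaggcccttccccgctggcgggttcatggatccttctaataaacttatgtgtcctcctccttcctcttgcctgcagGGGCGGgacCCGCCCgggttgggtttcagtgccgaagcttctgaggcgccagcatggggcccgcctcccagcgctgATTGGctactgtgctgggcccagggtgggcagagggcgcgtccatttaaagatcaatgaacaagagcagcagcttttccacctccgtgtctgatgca
Acat2: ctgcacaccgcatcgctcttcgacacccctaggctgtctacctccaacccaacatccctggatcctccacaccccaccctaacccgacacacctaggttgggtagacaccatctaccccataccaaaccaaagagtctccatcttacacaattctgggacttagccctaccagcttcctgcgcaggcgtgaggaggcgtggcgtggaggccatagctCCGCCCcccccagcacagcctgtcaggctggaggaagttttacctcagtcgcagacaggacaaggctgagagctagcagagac
Lss: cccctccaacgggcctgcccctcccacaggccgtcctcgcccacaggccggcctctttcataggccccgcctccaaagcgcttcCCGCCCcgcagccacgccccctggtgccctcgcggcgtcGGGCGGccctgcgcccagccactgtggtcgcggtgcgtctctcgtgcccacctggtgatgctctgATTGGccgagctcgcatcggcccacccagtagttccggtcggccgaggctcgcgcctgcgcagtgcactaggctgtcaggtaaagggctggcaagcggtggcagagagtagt
Srebf2: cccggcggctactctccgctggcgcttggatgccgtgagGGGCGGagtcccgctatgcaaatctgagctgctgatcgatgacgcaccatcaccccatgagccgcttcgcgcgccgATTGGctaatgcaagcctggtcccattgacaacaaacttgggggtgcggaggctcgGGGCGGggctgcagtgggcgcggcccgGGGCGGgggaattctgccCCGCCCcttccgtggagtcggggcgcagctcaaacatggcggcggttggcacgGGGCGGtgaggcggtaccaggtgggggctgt
Abca1: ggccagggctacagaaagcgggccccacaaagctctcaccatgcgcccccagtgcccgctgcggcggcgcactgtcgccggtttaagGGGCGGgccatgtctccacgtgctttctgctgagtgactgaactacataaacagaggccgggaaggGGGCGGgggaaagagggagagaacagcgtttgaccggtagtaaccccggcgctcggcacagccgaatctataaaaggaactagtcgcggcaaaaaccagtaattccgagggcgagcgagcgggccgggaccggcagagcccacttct
Hmgcs1: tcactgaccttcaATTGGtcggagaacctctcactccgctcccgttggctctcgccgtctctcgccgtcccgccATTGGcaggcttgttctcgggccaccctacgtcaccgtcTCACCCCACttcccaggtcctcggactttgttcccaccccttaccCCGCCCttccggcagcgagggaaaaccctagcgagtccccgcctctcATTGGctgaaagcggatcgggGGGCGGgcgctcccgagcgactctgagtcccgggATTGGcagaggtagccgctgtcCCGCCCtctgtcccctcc

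CCAAT occurred in 21 of 27 member windows (77.8%) and in 37.4% of all 32851 windows. GGGCGG occurred in 22 of 27 (81.5%) and in 35.7% of all. The background is not matched to the members. Each member counts with 1 window, whereas the 32851 windows belong to 27025 genes, some with several starts. They were not limited to the 15969 genes tested here. Whether the members differ in these motifs from other expressed genes was not tested. Among the 17 enzymes with a window, 15 held CCAAT and 15 held GGGCGG. The sterol regulatory letters TCACNCCAC occurred in 1 member window, that of Hmgcs1 at position -137 from the start, and in 1.24% of all windows. The stricter form TCACCCCAC was the same match and occurred in 0.551% of all. The LXR element known as DR4 occurred in 0 of 27 member windows, and in 0.0152% of all. The Hmgcs1 window carries the sterol regulatory letters between pairs of CCAAT motifs, whereas Pmvk, with a larger luminal rise, has only a CCAAT. The Acat2 and Abca1 windows held GGGCGG and no CCAAT. No motif searched is part of another, except that the stricter sterol regulatory form is part of the looser one. A match is a description of these letters and not a bound site, and a window without one says nothing of sites elsewhere.

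All 6 mevalonate enzymes rose in luminal cells at lactation (background 23.7%, and 6 of 6 also with library size only), and 5 of the 6 rose in basal cells (background 15.7%). Acat2, the cytosolic acetoacetyl-CoA thiolase, was at 11.6 and 12 CPM in virgin, 18.5 and 17.4 CPM in pregnant and 106 and 95.9 CPM in lactating luminal libraries. In basal libraries it stayed between 14.5 and 21.4 CPM. Acat2 rose by 2.49 (SE 0.12) in lactating against pregnant luminal cells, a 5.64-fold level, and rose by 0.35 (SE 0.12) in basal cells. The basal change was not called without any 1 of luminal virgin 1, luminal virgin 2, luminal lactating 1, luminal lactating 2, basal pregnant 1, basal pregnant 2 and basal lactating 1, with values between 0.20 and 0.42, and was not called without the low-count filter (0.36) or in a fit of that cell type alone (0.35) or with luminal carry-over subtracted (0.32) or by DESeq2 (0.35). The luminal rise exceeded the basal by 2.14 (SE 0.17). Acat2 had already risen in pregnant against virgin luminal cells, by 0.60 (SE 0.12).

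Hmgcs1, the synthase that makes HMG-CoA, was higher in basal than in luminal cells. It was at 63.6 and 50.4 CPM in virgin, 48.4 and 40.1 CPM in pregnant and 150.3 and 131 CPM in lactating luminal libraries. Its basal values were 112 and 91.9 CPM in virgin, 105 and 91.5 CPM in pregnant and 286 and 255 CPM in lactating basal libraries. Every basal library lay above the luminal libraries of its stage, and the lactating libraries were the highest in both cell types. Hmgcs1 rose by 1.67 (SE 0.15) at lactation in luminal and rose by 1.46 (SE 0.15) in basal cells, and the luminal minus basal difference of 0.21 (95% interval -0.25 to 0.67, adjusted p = 0.481) was not called. With library size only, Hmgcs1 had a called difference of -0.60. About 12.1% of its annotated exon bases overlap the overlapping gene Gm48342. Its counts are uncertain for that reason, since the strand setting of the counting is not given in the sources used here. The share of its counts in doubt was not determined.

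Pmvk, the phosphomevalonate kinase, showed the largest luminal rise of these 6 enzymes. It was at 17.1 and 17.2 CPM in virgin, 22.7 and 22.3 CPM in pregnant and 140.4 and 147.5 CPM in lactating luminal libraries, and at 12.2 and 14.2 CPM in virgin, 15.8 and 16.5 CPM in pregnant and 30.9 and 26.4 CPM in lactating basal libraries. The lactating luminal libraries lie far above every other library. Pmvk rose by 2.68 (SE 0.11, adjusted p = 1.27e-08) in luminal and rose by 0.83 (SE 0.11) in basal cells, a difference of 1.85 (SE 0.16). Its smaller luminal rise in pregnancy was 0.39 (SE 0.11). That change was not called without luminal virgin 1 (0.39) or luminal virgin 2 (0.40) or luminal pregnant 1 (0.37), and was -0.11 with library size only.

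Mvd, the mevalonate diphosphate decarboxylase, was at 14.4 and 13.4 CPM in virgin, 33.9 and 29.7 CPM in pregnant and 79.0 and 89.2 CPM in lactating luminal libraries, a step up at each stage that no libraries of adjacent stages overlapped. It rose by 1.20 (SE 0.16) in pregnancy and by a further 1.4 (SE 0.15) at lactation. In basal libraries it stayed between 5.23 and 9.33 CPM, with a lactating against pregnant value of 0.47 (95% interval 0.09 to 0.85, adjusted p = 0.0562), not called, though called with the replicate block (0.49). The luminal change at lactation exceeded the basal by 0.93 (SE 0.23) and was 0.60 without basal pregnant 1. Mvk, the mevalonate kinase, and Idi1, the isopentenyl diphosphate isomerase, rose in both cell types. Mvk rose by 1.44 (SE 0.18) in luminal and rose by 1.18 (SE 0.17) in basal cells, with a difference of 0.27 (95% interval -0.26 to 0.80, adjusted p = 0.429). Idi1 was at 19.9 and 19.3 CPM in luminal and 25.8 and 18 CPM in basal lactating libraries, and between 5.18 and 7.84 CPM in the other 8. Idi1 rose by 1.59 (SE 0.23) in luminal and rose by 1.71 (SE 0.22) in basal cells, with a difference of -0.12 (95% interval -0.80 to 0.56, adjusted p = 0.807). Neither difference was called, though that of Idi1 was called with library size only (-0.93).

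The 2 prenyl diphosphate synthases differed. Fdps, which makes farnesyl diphosphate, was at 18.9 and 15.1 CPM in virgin, 17.5 and 14.2 CPM in pregnant and 104 and 95.2 CPM in lactating luminal libraries. In basal cells it was at 15.3 and 12.4 CPM in virgin, 10.5 and 6.88 CPM in pregnant and 30.9 and 29.6 CPM in lactating basal libraries. Fdps rose by 2.65 (SE 0.19) at lactation in luminal and rose by 1.8 (SE 0.19) in basal cells. The luminal excess was 0.85 (SE 0.26), a value that was not called without any 1 of luminal pregnant 2, luminal lactating 1, basal pregnant 1, basal lactating 1 and basal lactating 2, with values between 0.52 and 0.89. In basal cells Fdps fell by 0.67 (SE 0.19) in pregnancy before it rose, and that fall was not called without basal virgin 1 (-0.50) or basal pregnant 2 (-0.40), and was -1.01 without basal pregnant 1. Its exons overlap those of the overlapping gene Gm43738 over 26.7% of their bases, the largest overlap among the 33 genes. Its level is uncertain for that reason, and the share of its counts in doubt was not determined.

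Ggps1, which makes the geranylgeranyl diphosphate used for protein prenylation, lies on a branch away from cholesterol. It stayed between 11 and 16.5 CPM in all 12 libraries. It was the enzyme that was called in neither cell type at lactation, with 0.31 (95% interval 0.04 to 0.57, adjusted p = 0.0695) in basal cells. With library size only, the luminal value at lactation was called, at -0.95. Its rise of 0.44 (SE 0.12) in pregnant against virgin luminal cells was not called without luminal virgin 2 (0.39) or luminal pregnant 1 (0.41), and was -0.07 with library size only. The rise of 0.34 (SE 0.13) in lactating against virgin luminal cells was not called without luminal virgin 1 (0.39) or luminal virgin 2 (0.29) or luminal lactating 1 (0.31), and was not called without the low-count filter (0.32), and was -1.02 with library size only.

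Of the 3 enzymes from farnesyl diphosphate to lanosterol, Fdft1 and Sqle fell and Lss rose in luminal pregnancy, and all 3 rose at lactation in both cell types, against 23.7% of all genes in luminal and 15.7% in basal cells. Fdft1, the squalene synthase, was at 28.1 and 29.2 CPM in virgin, 11.8 and 11.7 CPM in pregnant and 48.8 and 45.0 CPM in lactating luminal libraries, and at 33.5 and 29.9 CPM in virgin, 23.5 and 31.6 CPM in pregnant and 83.8 and 60.7 CPM in lactating basal libraries. The pregnant luminal libraries were the lowest of all 12. Fdft1 fell by 1.29 (SE 0.17) in luminal pregnancy and rose by 2.00 (SE 0.17) at lactation. It rose by 1.39 (SE 0.16) at lactation in basal cells, and the difference between the cell types at that step was 0.60 (95% interval 0.10 to 1.11, adjusted p = 0.0608), not called, though called with the replicate block (0.60). The lactating luminal libraries lay above the virgin ones by 0.71 (SE 0.16), a value that was -0.65 with library size only. The opposite-strand gene Ctsb overlaps 18.3% of the Fdft1 exon bases.

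Sqle, the squalene epoxidase that is a rate-limiting step of sterol synthesis, moved in opposite directions in the cell types in pregnancy. It was at 72.7 and 68.9 CPM in virgin, 42.3 and 37.8 CPM in pregnant and 183.5 and 191 CPM in lactating luminal libraries. Its basal values were 56.8 and 62.4 CPM in virgin, 100.1 and 98.1 CPM in pregnant and 194 and 136 CPM in lactating basal libraries. It fell by 0.82 (SE 0.14) in pregnant luminal cells and rose by 0.73 (SE 0.14) in pregnant basal cells, with a luminal minus basal difference of -1.56 (SE 0.20, adjusted p = 0.000111). At lactation it rose by 2.23 (SE 0.15) in luminal and rose by 0.74 (SE 0.14) in basal cells, with a luminal excess of 1.49 (SE 0.20). The basal value was 0.46 without basal lactating 1. Lss, the lanosterol synthase, climbed at both luminal steps. It was at 14.4 and 11.2 CPM in virgin, 21.3 and 21.8 CPM in pregnant and 106.5 and 129.9 CPM in lactating luminal libraries, and it rose by 0.75 (SE 0.17) in pregnancy and by 2.45 (SE 0.17) at lactation. In basal libraries it was between 11.5 and 16.1 CPM before lactation and 30.3 and 28.0 CPM at lactation, where it rose by 1.18 (SE 0.17). The luminal excess at lactation was 1.27 (SE 0.24). The luminal excess in pregnancy, 0.88 (SE 0.24), was not called without luminal virgin 2 (0.71) or basal virgin 1 (0.64) or basal pregnant 2 (0.73).

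All 9 enzymes between lanosterol and cholesterol rose in luminal cells at lactation (background 23.7%), and 5 of the 9 rose in basal cells (background 15.7%). With library size only, 5 of the 9 were called higher and 1 lower in luminal cells. Cyp51, the lanosterol demethylase, was at 62.6 and 51.8 CPM in virgin, 54.2 and 36.2 CPM in pregnant and 164 and 163.5 CPM in lactating luminal libraries. The basal libraries were higher at every stage, at 115 and 126 CPM in virgin, 182 and 178 CPM in pregnant and 271 and 195 CPM in lactating basal libraries. Cyp51 rose by 1.85 (SE 0.19) in luminal cells at lactation. In basal cells its lactating against pregnant value was 0.37 (95% interval -0.02 to 0.76, adjusted p = 0.13), and the luminal excess was 1.48 (SE 0.26). Its basal rise came earlier, by 0.58 (SE 0.18) in pregnancy, a change that was not called without basal virgin 1 (0.52) or basal virgin 2 (0.64) or basal pregnant 1 (0.56) or basal pregnant 2 (0.59). The luminal minus basal change in pregnancy was -0.92 (SE 0.26), a difference that was not called without luminal virgin 1 (-0.77) or luminal pregnant 2 (-0.66) or basal virgin 1 (-0.85).

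Tm7sf2 and Lbr encode the 2 sterol C14-reductases, and they behaved differently. Tm7sf2, the enzyme of the endoplasmic reticulum, was at 6.31 and 7.83 CPM in virgin, 6.94 and 6.66 CPM in pregnant and 46.6 and 40.0 CPM in lactating luminal libraries, and at 3.79 and 4.01 CPM in virgin, 3.95 and 4.04 CPM in pregnant and 7.04 and 6.35 CPM in lactating basal libraries. It rose by 2.67 (SE 0.15, adjusted p = 8.6e-08) in luminal and rose by 0.74 (SE 0.16) in basal cells at lactation, a difference of 1.92 (SE 0.22). Lbr, a protein of the inner nuclear membrane that also binds lamins, was between 29.9 and 59.3 CPM in all 12 libraries. Its luminal rise of 0.46 (SE 0.11) was not called without luminal pregnant 2 (0.34), and was -0.41 with library size only. The luminal change was above the basal by 0.73 (SE 0.16), which was -0.08 with library size only. The Tm7sf2 exons overlap those of Vps51 over 12.1% of their bases, and the Lbr exons overlap those of other genes, chiefly Dnah14, over 10.7%.

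Msmo1, the sterol C4-methyl oxidase, rose in both cell types. It was at 17.5 and 20.6 CPM in virgin, 15.4 and 12.3 CPM in pregnant and 74.2 and 66.5 CPM in lactating luminal libraries, and at 12.4 and 14.9 CPM in virgin, 14.9 and 12.8 CPM in pregnant and 65.4 and 48.7 CPM in lactating basal libraries. It rose by 2.34 (SE 0.17) in luminal and rose by 2.04 (SE 0.17) in basal cells, and the difference of 0.30 (95% interval -0.21 to 0.82, adjusted p = 0.357) was not called. Nsdhl, the next enzyme in C4 demethylation, was at 76.2 and 73.2 CPM in luminal and 40.0 and 39.4 CPM in basal lactating libraries, and between 13.1 and 19.4 CPM in the other 8. It rose by 2.12 (SE 0.16) in luminal and rose by 1.24 (SE 0.16) in basal cells, with a luminal excess of 0.88 (SE 0.22). Hsd17b7, the 3-ketosteroid reductase, was at 19.9 and 20 CPM in virgin, 39.2 and 49.3 CPM in pregnant and 71.4 and 67.8 CPM in lactating luminal libraries. It rose by 1.15 (SE 0.15) in luminal pregnancy, by 0.65 (SE 0.15) at luminal lactation and by 0.88 (SE 0.15) at basal lactation. The luminal lactation value was -0.20 with library size only.

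Ebp, the sterol isomerase, was at 31.6 and 27.9 CPM in virgin, 50.6 and 50.1 CPM in pregnant and 106.5 and 106 CPM in lactating luminal libraries, against a flat 17.5 to 20.8 CPM over all basal libraries. It rose by 0.76 (SE 0.10) in luminal pregnancy and by 1.08 (SE 0.10) at lactation, and the basal value at lactation was -0.09 (95% interval -0.33 to 0.14, adjusted p = 0.533). Dhcr7, the final reductase of the pathway through 7-dehydrocholesterol, was at 22.1 and 19.8 CPM in virgin, 25.4 and 22.6 CPM in pregnant and 71.3 and 80.4 CPM in lactating luminal libraries, and at 9.04 and 7.08 CPM in virgin, 7.56 and 6.30 CPM in pregnant and 9.19 and 10.6 CPM in lactating basal libraries. It rose by 1.66 (SE 0.14) in luminal and rose by 0.51 (SE 0.16) in basal cells. The basal change was not called without basal pregnant 2 (0.38) or basal lactating 2 (0.40), and was not called in a fit of that cell type alone (0.50). The luminal excess at lactation was 1.17 (SE 0.15) for Ebp and 1.15 (SE 0.21) for Dhcr7. Sc5d, the lathosterol desaturase, rose mainly in pregnancy in both cell types. It rose by 0.78 (SE 0.17) in luminal and rose by 1.35 (SE 0.17) in basal cells in pregnancy, to 52.5 and 58.4 CPM and 62.4 and 53.3 CPM, and the difference at that step was -0.57 (95% interval -1.09 to -0.04, adjusted p = 0.0989), called with the replicate block (-0.56). Its further luminal rise of 0.49 (SE 0.17) at lactation was not called without luminal pregnant 1 (0.43) or luminal lactating 1 (0.52) or luminal lactating 2 (0.53), and was -0.36 with library size only.

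**Figure D2:**
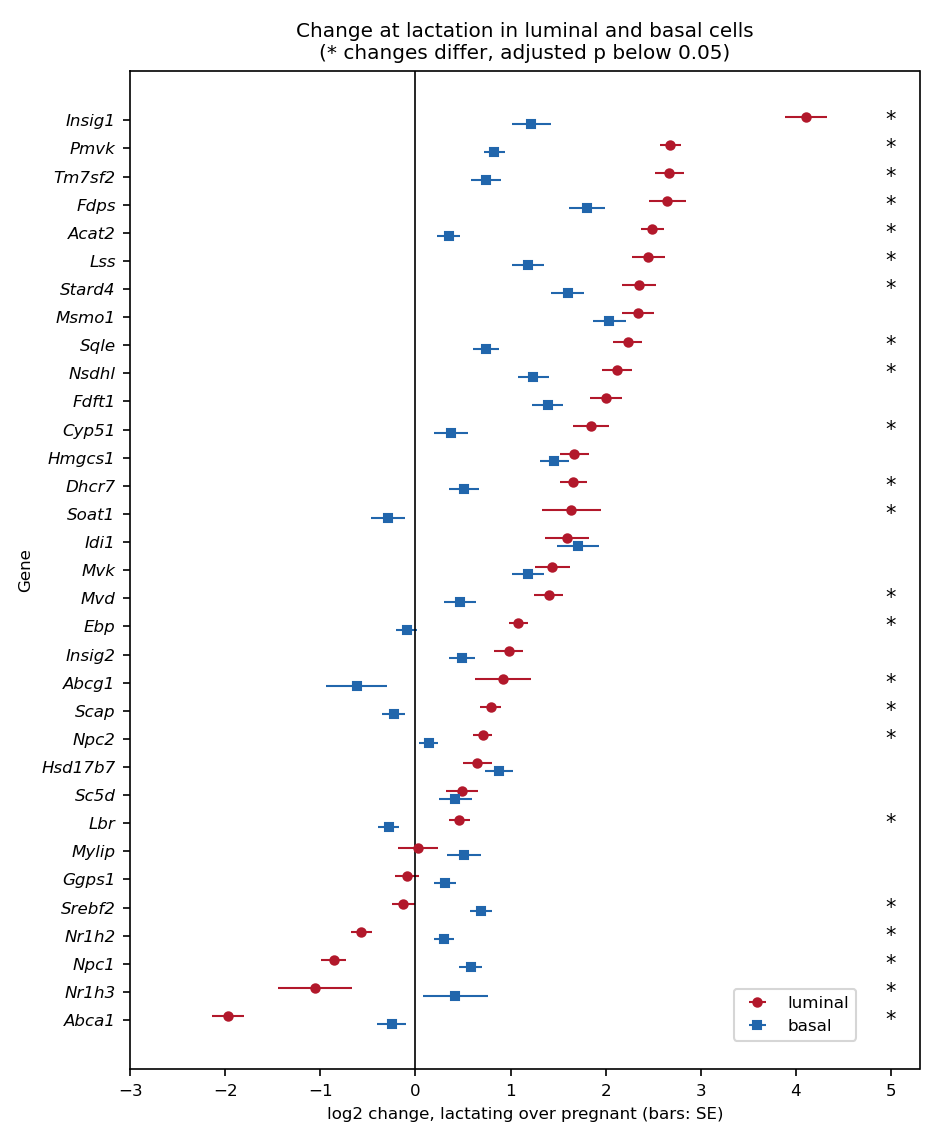
Log2 change of each gene in lactating against pregnant luminal cells (red circles) and basal cells (blue squares), with SE bars, ordered by the luminal change, on the TMM scale. Stars mark the 23 genes whose luminal and basal changes differ at an adjusted p below 0.05, from Insig1 at the top, 4.11 and 1.22, to Abca1 at the bottom, -1.97 and -0.25. The starred differences of Lbr, Stard4 and Npc2 turn negative with library size only.

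The sensor genes moved differently from one another. Insig1, which retains SCAP in the endoplasmic reticulum, had the largest luminal rise of the 33 at lactation. It was at 19.4 and 15.2 CPM in virgin, 34.1 and 21.5 CPM in pregnant and 448 and 513 CPM in lactating luminal libraries, and at 23.2 and 19.9 CPM in virgin, 24.0 and 18 CPM in pregnant and 52.6 and 45.5 CPM in lactating basal libraries. The lactating luminal level was 17.2 times the pregnant level, and the lactating luminal libraries lay above every other library. Insig1 rose by 4.11 (SE 0.22, adjusted p = 5.79e-08) in luminal and rose by 1.22 (SE 0.20) in basal cells, a difference of 2.89 (SE 0.29, adjusted p = 1.54e-05). Per kilobase of gene length it became the highest of the 33 in lactating luminal cells, at 181.5 ± 17.5 CPM per kb (SD, n = 2), ahead of Npc2 at 123.5 ± 4.71 and Pmvk at 95.6 ± 3.34 CPM per kb. The luminal rise in pregnancy, 0.69 (SE 0.21), was not called without luminal virgin 2 (0.52) or luminal pregnant 1 (0.31). Insig2, the related retention protein, was at 20.3 and 19.1 CPM in virgin, 9.81 and 13.6 CPM in pregnant and 23.3 and 22.8 CPM in lactating luminal libraries. It fell by 0.76 (SE 0.14) in pregnancy and rose by 0.98 (SE 0.15) at lactation, which left lactating luminal libraries at 0.23 (95% interval -0.08 to 0.54, adjusted p = 0.184) against virgin ones. Basal Insig2 lay between 24.5 and 37.6 CPM, and its rise at lactation of 0.49 (SE 0.14) was not called without basal pregnant 1 (0.38) or basal lactating 1 (0.47) or basal lactating 2 (0.50).

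Srebf2, the gene of the transcription factor itself, went in opposite directions in the cell types. It was at 224 and 219 CPM in virgin, 179 and 163 CPM in pregnant and 158 and 154 CPM in lactating luminal libraries. Its basal values were 235 and 191 CPM in virgin, 281 and 319 CPM in pregnant and 479 and 489 CPM in lactating basal libraries, each stage above the one before. In basal cells Srebf2 rose by 0.69 (SE 0.12) at lactation and was 1.19 (SE 0.12) above virgin. In luminal cells the lactating against pregnant value was -0.13 (95% interval -0.39 to 0.12, adjusted p = 0.382), and the lactating against virgin value was -0.51 (SE 0.12). The former was -0.99, and called, with library size only. The luminal minus basal change was -0.87 (SE 0.17) in pregnancy and -0.82 (SE 0.17) at lactation. The luminal fall in pregnancy, -0.37 (SE 0.12), was not called without luminal virgin 1 (-0.36) or luminal virgin 2 (-0.38) or luminal pregnant 2 (-0.31), and the basal rise, 0.50 (SE 0.12), was not called without basal virgin 2 (0.35) or basal pregnant 2 (0.40). Srebf2 was lowest in the lactating luminal libraries, and per kilobase it was the highest of the 33 in lactating basal cells, at 106 ± 1.61 CPM per kb (SD, n = 2), ahead of Hmgcs1 at 82.5 ± 6.61 CPM per kb. Cleavage of the SREBP2 protein was not measured.

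Scap, the escort of SREBP2, had lactating against virgin values of 1.22 (SE 0.11) in luminal and -0.63 (SE 0.11) in basal cells. It was at 78.3 and 83.4 CPM in virgin, 110.0 and 108 CPM in pregnant and 184 and 194 CPM in lactating luminal libraries, and at 63.8 and 56.7 CPM in virgin, 47.0 and 44.2 CPM in pregnant and 34.7 and 43.1 CPM in lactating basal libraries. It rose by 0.79 (SE 0.11) at lactation in luminal cells. The basal value at lactation was -0.23 (95% interval -0.48 to 0.02, adjusted p = 0.144). The luminal change exceeded the basal by 0.83 (SE 0.16) in pregnancy and 1.03 (SE 0.16) at lactation. Scaled by library size only, the luminal changes were -0.07 in pregnancy, -0.06 at lactation and -0.14 in lactating against virgin cells, none of them called. The pregnancy rise in luminal cells, 0.43 (SE 0.11), was not called without luminal virgin 1 (0.39), and the basal fall, -0.40 (SE 0.11), was not called without basal virgin 1 (-0.31) or basal pregnant 2 (-0.36). The gene 5830462I19Rik overlaps 13.2% of the Scap exon bases.

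**Figure D3:**
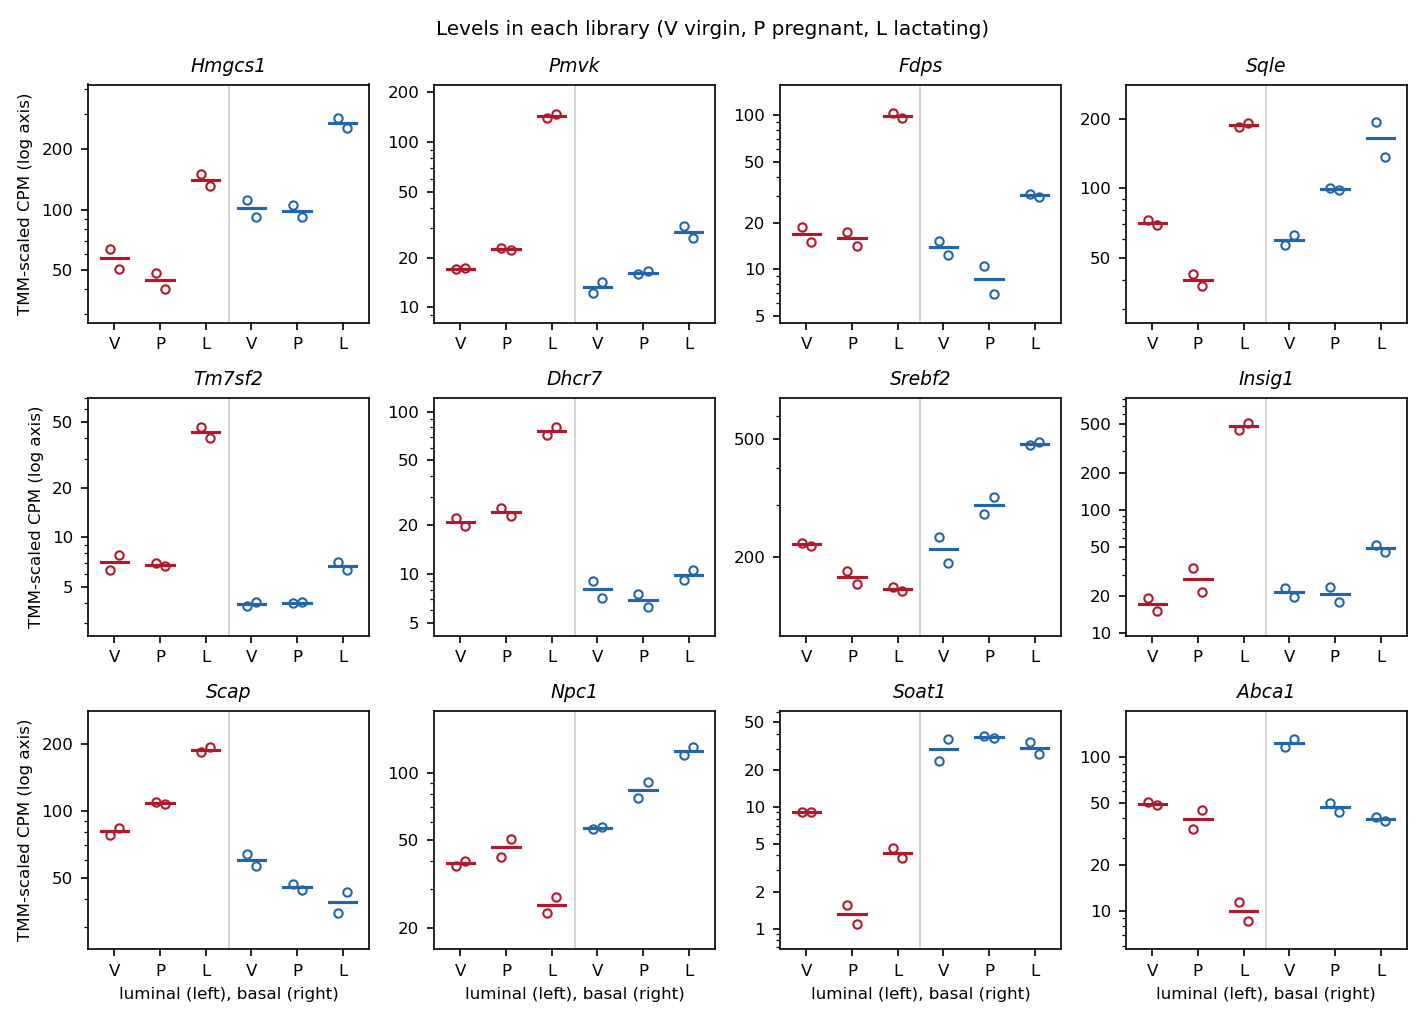
TMM-scaled CPM (log axis) of 12 genes in each library: luminal libraries in red on the left of each panel, basal libraries in blue on the right, at the virgin (V), pregnant (P) and lactating (L) stages, with a bar at each group's mean. Insig1 reaches 448 and 513 CPM in lactating luminal libraries, Srebf2 reaches 479 and 489 CPM in lactating basal libraries, and Soat1 drops to 1.57 and 1.08 CPM in pregnant luminal libraries.

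The 4 transport genes split by cell type at lactation. Stard4, a soluble carrier that moves sterol between membranes and is an SREBP2 target, rose in both. It was at 6.2 and 5.74 CPM in virgin, 9.99 and 6.26 CPM in pregnant and 43.9 and 39.1 CPM in lactating luminal libraries, and at 7.89 and 6.66 CPM in virgin, 10.7 and 10.8 CPM in pregnant and 33 and 32.0 CPM in lactating basal libraries. It rose by 2.35 (SE 0.18) in luminal and rose by 1.60 (SE 0.17) in basal cells. The difference of 0.75 (SE 0.25) was not called without any 1 of luminal pregnant 2, luminal lactating 1, basal pregnant 1, basal pregnant 2, basal lactating 1 and basal lactating 2, with values between 0.46 and 0.77, and was 1.13 without luminal pregnant 1, and was -0.07 with library size only. The basal rise in pregnancy, 0.56 (SE 0.18), was not called without any 1 of basal virgin 1, basal virgin 2, basal pregnant 1, basal pregnant 2, basal lactating 1 and basal lactating 2, with values between 0.44 and 0.69.

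Npc1 and Npc2 work together to release cholesterol from late endosomes and lysosomes, and their levels moved apart. Npc1, the membrane protein, was at 38.1 and 40.0 CPM in virgin, 41.7 and 50.5 CPM in pregnant and 23.3 and 27.4 CPM in lactating luminal libraries. The basal libraries held 56.1 and 57.0 CPM in virgin, 77.2 and 91.0 CPM in pregnant and 120.5 and 131 CPM in lactating basal libraries. Npc1 fell by 0.86 (SE 0.13) at lactation in luminal cells and rose by 0.58 (SE 0.12) in basal cells, with a luminal minus basal difference of -1.44 (SE 0.18, adjusted p = 6.46e-05). Npc2, the soluble lysosomal protein, was at 94.3 and 86.5 CPM in virgin, 237 and 255 CPM in pregnant and 414 and 392 CPM in lactating luminal libraries. The basal libraries of Npc2 stayed between 56.4 and 72.7 CPM. Npc2 rose by 1.45 (SE 0.10) in luminal pregnancy and by 0.71 (SE 0.10) at lactation, a value that was -0.14 with library size only. The luminal change exceeded the basal by 1.68 (SE 0.15) in pregnancy and by 0.57 (SE 0.15) at lactation, and the difference at lactation was -0.23 with library size only.

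Soat1, which esterifies cholesterol for storage, had the largest fall of the 33 genes in any stage comparison. It was at 9.00 and 9.05 CPM in virgin, 1.57 and 1.08 CPM in pregnant and 4.59 and 3.79 CPM in lactating luminal libraries. In basal cells it was at 24.0 and 36.4 CPM in virgin, 38.6 and 36.7 CPM in pregnant and 34.4 and 27.1 CPM in lactating basal libraries. Soat1 fell by 2.75 (SE 0.26, adjusted p = 3.65e-06) in luminal pregnancy and then rose by 1.64 (SE 0.31) at lactation, which left a lactating against virgin value of -1.11 (SE 0.24). It was called in no basal stage comparison, and the luminal minus basal change was -3.07 (SE 0.32, adjusted p = 2.26e-05) in pregnancy and 1.93 (SE 0.36) at lactation. The pregnant luminal libraries held 35 and 22 Soat1 counts.

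The LXR and export genes held 3 of the 4 luminal falls at lactation, those of Abca1, Nr1h2 and Nr1h3. Abca1, which passes cholesterol to lipid-poor apolipoproteins, was at 50.7 and 48.8 CPM in virgin, 34.0 and 45.1 CPM in pregnant and 11.5 and 8.71 CPM in lactating luminal libraries. Its basal values were 115 and 129.7 CPM in virgin, 50.5 and 43.8 CPM in pregnant and 40.9 and 38.4 CPM in lactating basal libraries. Abca1 fell by 1.97 (SE 0.17, adjusted p = 1.5e-06) at lactation in luminal cells, against -0.25 (95% interval -0.56 to 0.07, adjusted p = 0.209) in basal cells, a luminal minus basal difference of -1.72 (SE 0.22). In pregnancy the luminal value was -0.33 (95% interval -0.65 to -0.02, adjusted p = 0.0793), not called, whereas Abca1 fell by 1.38 (SE 0.14) in basal cells. The endothelial markers were also lower in pregnant than in virgin basal libraries, and their part in the fall was not tested. Both cell types were below virgin at lactation, at -2.30 (SE 0.17) in luminal and -1.62 (SE 0.15) in basal cells.

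Abcg1, which exports sterol to high-density lipoprotein, was at 21.8 and 18.6 CPM in virgin, 4.03 and 5.92 CPM in pregnant and 10 and 8.79 CPM in lactating luminal libraries. The basal libraries held between 1.93 and 5.22 CPM. Abcg1 fell by 2.03 (SE 0.27) in luminal pregnancy and rose by 0.92 (SE 0.29) at lactation. That rise was not called without luminal pregnant 1 (0.68) or luminal lactating 1 (0.86). The endothelial and fibroblast markers also summed lower in pregnant than in virgin luminal libraries, and their part in the Abcg1 fall was not tested. Against virgin, the lactating value was -1.10 (SE 0.27) in luminal and -1.07 (SE 0.31) in basal cells. The basal value was not called without basal virgin 1 (-0.97) or basal lactating 2 (-0.84). The luminal minus basal change was -1.58 (SE 0.39) in pregnancy, which was not called without basal pregnant 1 (-0.99), and 1.54 (SE 0.43) at lactation, which was not called without basal pregnant 1 (0.96) or basal lactating 2 (1.32).

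Nr1h2 and Nr1h3 encode LXR beta and LXR alpha. Nr1h2 was at 75.0 and 75.4 CPM in virgin, 101 and 87.5 CPM in pregnant and 60.1 and 66.9 CPM in lactating luminal libraries, and at 77.3 and 69.9 CPM in virgin, 75.6 and 81.5 CPM in pregnant and 92.0 and 101 CPM in lactating basal libraries. It fell by 0.57 (SE 0.11) at lactation in luminal cells and rose by 0.30 (SE 0.11) in basal cells, a luminal minus basal difference of -0.87 (SE 0.15). The basal rise was not called without any 1 of luminal virgin 1, luminal virgin 2, luminal lactating 1, luminal lactating 2, basal pregnant 1, basal pregnant 2, basal lactating 1 and basal lactating 2, with values between 0.23 and 0.36, and was not called without the low-count filter (0.31) or in a fit of that cell type alone (0.29). Its luminal rise in pregnancy of 0.33 (SE 0.11) was not called without luminal virgin 1 (0.32) or luminal virgin 2 (0.33) or luminal pregnant 1 (0.21), and was -0.18 with library size only. Nr1h3 was scarce, at 3.80 and 4.56 CPM in virgin, 2.60 and 3.45 CPM in pregnant and 0.841 and 2.05 CPM in lactating luminal libraries and between 1.66 and 2.82 CPM in basal libraries. Luminal lactating library 1 was the lowest, and library 2 lay within the basal range. The luminal lactation value of -1.06 (SE 0.39) was not called without luminal pregnant 2 (-0.83) or luminal lactating 1 (-0.52) or basal lactating 1 (-1.06) or basal lactating 2 (-1.06), and was -1.81 without luminal lactating 2, and was not called with DESeq2 size factors (-0.99) or in a fit of that cell type alone (-1.05). The lactating against virgin value of -1.53 (SE 0.38) in luminal cells was not called without luminal lactating 1 (-1.0), and the difference from basal cells at lactation of -1.48 (SE 0.52) was not called without any 1 of luminal pregnant 2, luminal lactating 1, basal pregnant 1, basal lactating 1 and basal lactating 2, with values between -1.52 and -0.94, and was -2.22 without luminal lactating 2, and was not called with DESeq2 size factors (-1.40).

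Mylip, the ligase that marks lipoprotein receptors for degradation, was at 28.8 and 22.0 CPM in virgin, 14.1 and 17.0 CPM in pregnant and 13.8 and 17.9 CPM in lactating luminal libraries, and at 69.0 and 47.8 CPM in virgin, 40.3 and 35.0 CPM in pregnant and 51.4 and 55.7 CPM in lactating basal libraries. It was called in neither cell type at lactation, though the basal value was called with the replicate block (0.51) and the luminal value with library size only (-0.82). In pregnancy it was called lower in both, at -0.71 (SE 0.19) in luminal and -0.63 (SE 0.18) in basal cells. The luminal value was not called without luminal virgin 1 (-0.50) or luminal pregnant 1 (-0.59), and the basal value was not called without basal virgin 1 (-0.34) or basal pregnant 2 (-0.53). In lactating against virgin luminal cells the value was -0.68 (SE 0.20), which was not called without luminal virgin 1 (-0.48) or luminal lactating 1 (-0.47).

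Set side by side at each stage, the cell types differed for most of these genes, in both directions. In virgin glands 11 of 33 were higher (background 31.2%) and 10 lower (background 31.5%) in luminal than in basal cells. In pregnant glands 11 were higher (background 33.9%) and 10 lower (background 35.9%). In lactating glands 14 were higher (background 35.4%) and 11 lower (background 39.2%). These counts lie near the background at every stage. With library size only, the lactating split was 12 higher and 19 lower, and without basal virgin library 1 the count of higher genes in virgin glands was 7.

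At lactation the genes with the highest luminal over basal values were Insig1 at 3.29 (SE 0.21), Mvd at 3.20 (SE 0.17), Dhcr7 at 2.94 (SE 0.15), Tm7sf2 at 2.69 (SE 0.15) and Npc2 at 2.67 (SE 0.11). Insig1 had not differed by a call in virgin glands, at -0.32 (95% interval -0.77 to 0.13, adjusted p = 0.197; -0.32 and called with the replicate block), while Dhcr7 was higher in luminal cells already there, at 1.37 (SE 0.15). The lowest values at lactation belonged to Soat1 at -2.88 (SE 0.23), Npc1 at -2.31 (SE 0.13), Abca1 at -1.97 (SE 0.17), Mylip at -1.76 (SE 0.20) and Srebf2 at -1.63 (SE 0.12). Soat1 in pregnant glands was further apart than any other of the 33 at any stage, at -4.81 (SE 0.25, adjusted p = 3.42e-09). Hmgcs1 and Cyp51 were the enzymes called lower in luminal cells at all 3 stages. Hmgcs1 stood at -0.84 (SE 0.15) in virgin, -1.15 (SE 0.15) in pregnant and -0.94 (SE 0.15) in lactating glands. Cyp51 stood at -1.08 (SE 0.18), -1.99 (SE 0.19) and -0.51 (SE 0.18) in the same order, and the last value was not called without luminal lactating 1 (-0.47) or luminal lactating 2 (-0.48) or basal lactating 1 (-0.25). Outside the enzymes, Insig2, Npc1, Soat1 and Mylip were also lower in luminal cells at all 3 stages. Idi1, Ggps1 and Stard4 were called at no stage, but Stard4 was called with the replicate block in pregnant (-0.42) and lactating glands (0.35). With library size only, all 3 were called lower in luminal cells in lactating glands (-1.15, -1.16 and -0.64). Abcg1 was higher in luminal cells in virgin glands, at 2.04 (SE 0.27), and in lactating glands, at 2.01 (SE 0.31), with 0.46 (95% interval -0.18 to 1.10, adjusted p = 0.177) in pregnant glands.

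Several smaller differences were not called without a single library. In virgin glands Mvk at -0.54 (SE 0.17) was not called without luminal virgin 2 (-0.46) or basal virgin 1 (-0.36). Pmvk at 0.38 (SE 0.11) was not called without luminal virgin 2 (0.37) or basal virgin 1 (0.27). Msmo1 at 0.48 (SE 0.17) was not called without luminal virgin 2 (0.36) or basal virgin 1 (0.35). Scap at 0.42 (SE 0.11) was not called without basal virgin 2 (0.34). Sc5d at 0.50 (SE 0.17) was not called without luminal virgin 1 (0.39) or basal virgin 1 (0.44) or basal virgin 2 (0.56), and Nr1h3 at 0.98 (SE 0.32) was not called without luminal virgin 2 (0.84) or basal virgin 1 (0.70). Acat2 and Mvk were not called with library size only. In pregnant glands Nr1h2 at 0.26 (SE 0.11) was not called without any 1 of luminal virgin 1, luminal virgin 2, luminal pregnant 1, luminal lactating 1, luminal lactating 2, basal pregnant 1 and basal pregnant 2, with values between 0.16 and 0.32, and was not called with DESeq2 size factors (0.22) or without the low-count filter (0.27) or by DESeq2 (0.22). In lactating glands Fdft1 at -0.62 (SE 0.16) was not called without basal lactating 1 (-0.37), and Nsdhl at 0.91 (SE 0.15) and Hsd17b7 at 0.96 (SE 0.15) were -0.08 and -0.03 with library size only. Nr1h3 at -0.92 (SE 0.39) was not called without any 1 of luminal virgin 1, luminal virgin 2, luminal pregnant 1, luminal pregnant 2, luminal lactating 1, basal lactating 1 and basal lactating 2, with values between -0.97 and -0.39, and was -1.67 without luminal lactating 2, and was not called with DESeq2 size factors (-0.89) or with luminal carry-over subtracted (-0.92) or by DESeq2 (-0.89).

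**Figure D4:**
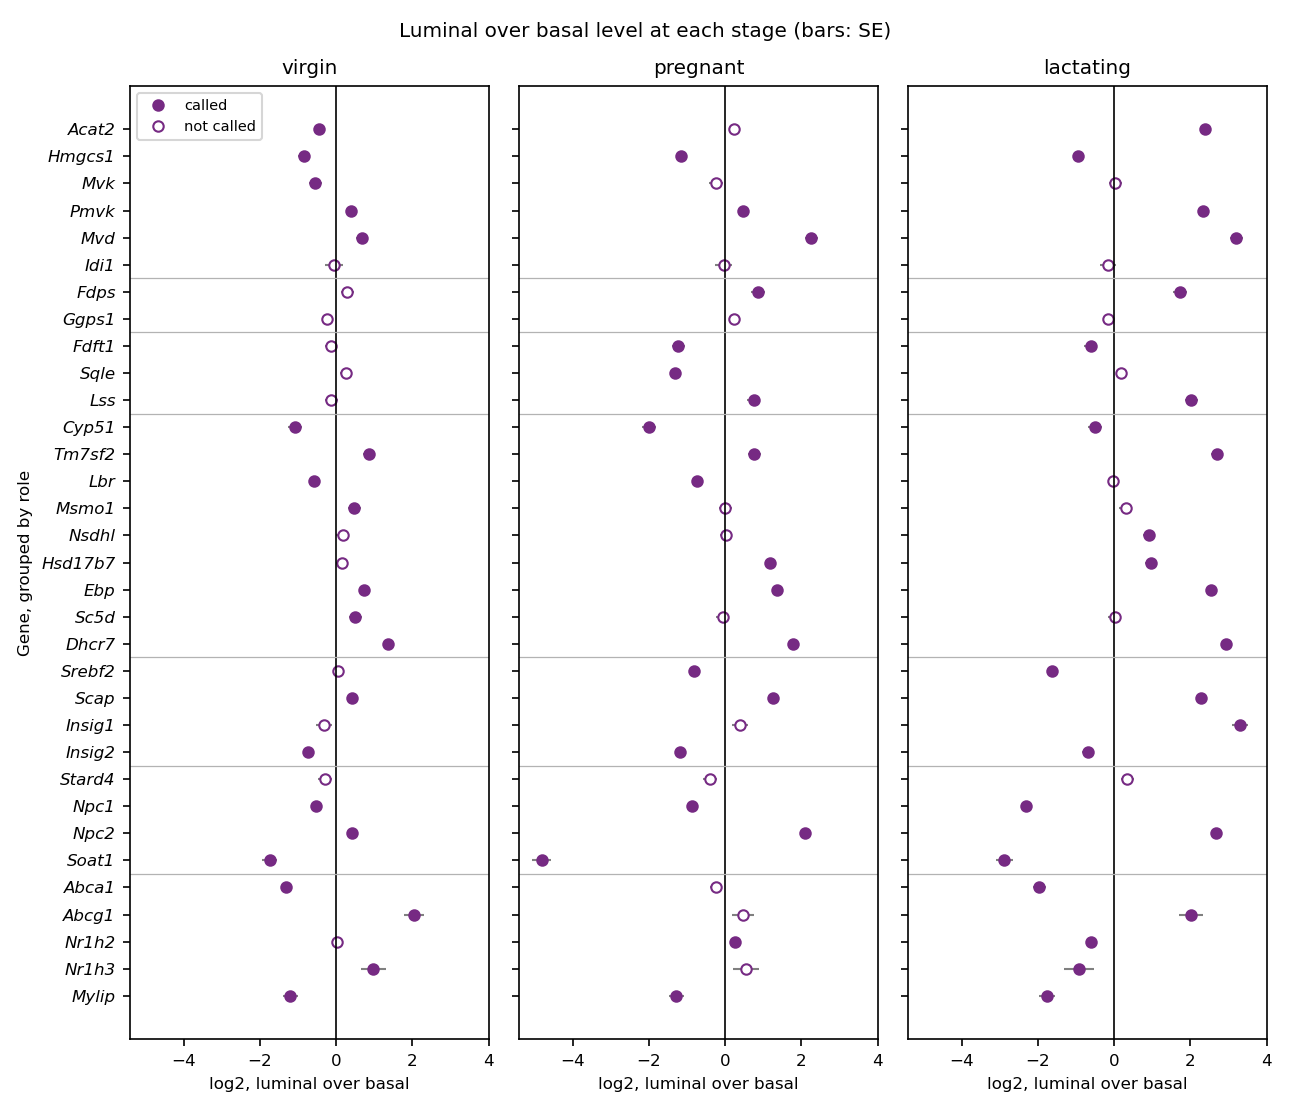
Log2 luminal over basal level of each gene (rows, grouped by role) in virgin, pregnant and lactating glands, with SE bars, filled where called at an adjusted p below 0.05. Insig1 lies at -0.32, 0.40 and 3.29, and Srebf2 at 0.06, -0.81 and -1.63. At lactation Nsdhl and Hsd17b7 turn negative with library size only.

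The neighbouring genes of sterol biology did not rise as a body at lactation, where 23.7% of all genes rose and 24.6% fell in luminal cells, and 15.7% rose and 17.4% fell in basal cells. The 33 genes and these lists were chosen with earlier results of these data known, so their contrast is only a description. Of the 13 further genes of SREBP processing and sterol sensing, 4 rose and 5 fell in luminal cells, and 2 were called in basal cells, both of them lower. Srebf1, the relative of Srebf2 that drives fatty acid synthesis, was at 641 and 1129 CPM in lactating and 341 and 282 CPM in pregnant luminal libraries and rose by 1.51 (SE 0.25). Rnf145, a sterol-responsive ubiquitin ligase gene, rose by 1.25 (SE 0.09) in luminal cells, at 332 and 336 CPM in lactating and 140.3 and 139.7 CPM in pregnant libraries, and fell by 0.47 (SE 0.09) in basal cells. Erlin1, which binds cholesterol in the endoplasmic reticulum, fell by 0.60 (SE 0.15) in basal cells, a change that was not called without basal pregnant 1 (-0.43) or basal lactating 2 (-0.42). Its luminal levels were lower at lactation too, at 34.9 and 37.7 CPM in lactating and 62.5 and 61.0 CPM in pregnant libraries.

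Of 9 genes of lipoprotein uptake and lysosomal release, 4 rose and 2 fell in luminal cells and 1 rose and 4 fell in basal cells. Lrp8, a lipoprotein receptor gene, rose by 1.32 (SE 0.19) in luminal cells, at 67.9 and 82.8 CPM in lactating against 30.7 and 29.5 CPM in pregnant libraries, and fell by 1.30 (SE 0.20) in basal cells. Vldlr, another receptor of that family, rose by 1.02 (SE 0.18) in luminal cells and was not called there with library size only (0.15), and Lrp1, a large endocytic receptor, rose by 0.98 (SE 0.15) in basal cells. The luminal levels of Lrp1 were higher at lactation too, at 18.8 and 20.9 CPM in lactating and 8.65 and 11.6 CPM in pregnant libraries. Of 13 further genes of sterol transfer between membranes, 5 rose and 5 fell in luminal and 5 rose and 2 fell in basal cells. Gramd1c, of the family that moves cholesterol from the plasma membrane inward, rose by 1.20 (SE 0.21) in luminal and rose by 0.97 (SE 0.20) in basal cells, and the luminal value was not called with library size only (0.35).

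Of 12 genes of oxysterols, sterol esters and further export, 4 rose and 3 fell in luminal cells, and 2 rose and 2 fell in basal cells. Ch25h, which makes the LXR ligand and SREBP inhibitor 25-hydroxycholesterol, rose by 2.09 (SE 0.32) in luminal cells at low levels, 2.83 and 2.20 CPM in lactating and 0.672 and 0.493 CPM in pregnant libraries. Lipe, the hormone-sensitive lipase that also splits sterol esters, fell by 1.44 (SE 0.23) in basal cells. Its luminal levels were lower at lactation too, at 26.3 and 23.5 CPM in lactating and 63.8 and 76.1 CPM in pregnant libraries. In the isoprenoid branch, which leads to ubiquinone, dolichol and prenylated proteins, 5 of 14 rose and 2 fell in luminal cells, and 1 was called, higher, in basal cells. Fnta, a subunit of the protein prenyl transferases, fell by 0.68 (SE 0.11) in luminal cells. The median luminal changes of these 5 lists lay between -0.15 and 0.19, beside 1.76 for the 20 synthesis enzymes and 0.00 for all genes. Lists and enzymes were chosen with earlier results of these data known. With library size only, the luminal counts of higher and lower genes were 2 and 11 for SREBP processing, 1 and 4 for uptake, and 2 and 6 for oxysterols, esters and export. The 10 transfer genes and 11 isoprenoid genes then called were all lower. The all-gene median shifted by -0.85 there, and the shares of all genes called under that scaling were not determined.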

How the data were processed

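Per the labels, total RNA of sorted mouse mammary luminal and basal cells was sequenced in 12 libraries. The authors deposited a table of read counts per Entrez gene for all libraries, and those counts were used as deposited. Per the submitters' processing notes, CASAVA 1.8.2, Subread 1.4.4 and featureCounts were used with GRCm38/mm10. The strand setting is not given in the sources used here, so exons shared with other genes (GENCODE vM21) were reported as uncertain. The overlaps are shares of all annotated exon bases of a gene, which need not be the exons counted. Gene symbols came from a table of gene identifiers, and 1904 of 27179 identifiers, with 0.539% to 1.37% of counts, had none.

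The 6 groups were fitted together with edgeR 4.0.16 (R 4.3.3, limma 3.58.1): TMM scaling, filterByExpr with a minimum count of 10, quasi-likelihood F test, Benjamini-Hochberg adjustment over all 15969 genes tested, and calls at an adjusted p below 0.05. Each SE was taken from the log2 change and its F value. The fits were tested on simulated data. Alternatives were DESeq2 1.42.0, DESeq2 size factors, library size only, no low-count filter, a replicate block, a fit of 1 cell type alone, luminal carry-over subtracted by the casein ratio, and each library left out. No replicate pair agreed within sampling noise (chi-square per degree of freedom 8.76 to 27.4).

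The replicate numbers come from the labels. At each stage, the luminal and basal library that carry the same number deviated from their group means together, with a correlation of 0.179 to 0.370 over 8500 genes, against -0.279 to 0.169 between other groups. The numbers may thus pair luminal with basal libraries, though these ranges nearly meet. The main fit holds no term for such pairs, so its luminal against basal tests treat the libraries as independent. The replicate block holds such a term. The members and the related lists were chosen with earlier results of these data known. Genes named from the related lists are at most the 2 called genes per list and comparison with the largest log2 change. Every member is accounted for. Promoter windows and motif positions are from RefSeq on GRCm38.p6.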

Additional observations from a re-analysis of the deposited data

Results flagged for a closer look

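The luminal and basal changes of a gene were set against each other as a luminal minus basal difference in the same edgeR quasi-likelihood fit with Benjamini-Hochberg adjustment, and the genes below were marked because that difference had an adjusted p below 0.05. Between pregnancy and lactation the difference was positive, at 2.89 for Insig1, 2.14 for Acat2, 1.93 for Soat1, 1.92 for Tm7sf2, 1.85 for Pmvk, 1.54 for Abcg1, 1.49 for Sqle, 1.48 for Cyp51, 1.27 for Lss, 1.17 for Ebp, 1.15 for Dhcr7, 1.03 for Scap, 0.93 for Mvd, 0.88 for Nsdhl, 0.85 for Fdps, 0.75 for Stard4, 0.73 for Lbr and 0.57 for Npc2. It was negative at that step, at -1.72 for Abca1, -1.48 for Nr1h3, -1.44 for Npc1, -0.87 for Nr1h2 and -0.82 for Srebf2. Between the virgin state and pregnancy the positive differences were 1.68 for Npc2, 1.57 for Mvd, 1.04 for Abca1, 1.03 for Hsd17b7, 0.88 for Lss, 0.83 for Scap, 0.68 for Acat2, 0.64 for Ebp and 0.49 for Ggps1. The negative differences there were -3.07 for Soat1, -1.58 for Abcg1, -1.56 for Sqle, -1.08 for Fdft1, -0.92 for Cyp51 and -0.87 for Srebf2.

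Soat1 and Abcg1 stand in both steps with opposite signs, as do Sqle and Cyp51. For Soat1, Abcg1 and Sqle the pregnant luminal libraries were the lowest luminal libraries, at 1.57 and 1.08 CPM for Soat1, 4.03 and 5.92 CPM for Abcg1 and 42.3 and 37.8 CPM for Sqle. Since both steps use the same pregnant libraries, their differences are not independent of each other. Mvd, Scap, Lss, Acat2, Ebp and Npc2 had a positive difference at both steps, and Srebf2 a negative one. Abca1 had a positive difference in pregnancy and a negative one at lactation. The leukocyte markers summed to 11.5 and 12.2 CPM in virgin, 49.8 and 50.1 CPM in pregnant and 17.7 and 18.6 CPM in lactating luminal libraries. Their part in these differences was not tested.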

How the results depend on the processing

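Of 238 calls of a gene in a comparison, 161 held under every alternative and 192 under every alternative other than library size only. Scaling by library size only, in which caseins take part of each luminal library, moved the median of all genes by up to -1.35. The shares of all genes called under that scaling were not determined. The members then counted 3 higher and 16 lower in luminal pregnant against virgin, 8 lower in luminal lactating against pregnant, 14 higher and 12 lower in luminal lactating against virgin, 3 higher in basal pregnant against virgin, and 19 lower in luminal against basal lactating cells. The luminal minus basal differences then counted 4 higher and 12 lower in pregnancy, and 7 higher and 11 lower at lactation. These values reversed with library size only: in luminal pregnant against virgin, -0.11 for Pmvk, -0.07 for Ggps1, -0.07 for Scap and -0.18 for Nr1h2. In luminal lactating against pregnant they were -0.41 for Lbr, -0.20 for Hsd17b7, -0.36 for Sc5d, -0.06 for Scap, -0.14 for Npc2 and -0.17 for Trit1. In luminal lactating against virgin they were -0.06 for Hmgcs1, -1.02 for Ggps1, -0.65 for Fdft1, -0.09 for Sc5d and -0.14 for Scap. In luminal against basal lactating cells they were -0.08 for Nsdhl and -0.03 for Hsd17b7, and in the difference at lactation -0.08 for Lbr, -0.07 for Stard4 and -0.23 for Npc2. DESeq2 size factors moved the median by no more than 0.079. With the replicate block, all 238 calls held and 22 further gene changes were called, among them Lbr, the 1 gene then lower in basal lactating against pregnant cells. With 1 library left out, the counts ranged over 3 to 6 higher and 1 to 6 lower in basal pregnant against virgin, 0 to 1 lower in basal lactating against pregnant (Abcg1, without basal pregnant library 2), 2 to 4 lower in basal lactating against virgin, and 7 to 12 higher in luminal against basal virgin cells. The other leave-one-out counts stayed within 1.5 times the main count. A group then rests on 1 library that is assumed to vary like the other groups. The cause of these shifts was not tested. Nr1h3 and Soat1 rest on few counts in luminal cells.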
